A study of Arabidopsis thaliana with 18 samples.

Results

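DNA methylation in the epigenetic recombinant inbred line (epiRIL) 232 was compared with that in wild-type Columbia (Col-wt) across 3 intervals of the Arabidopsis thaliana genome, by bisulfite sequencing of genomic DNA. The comparison used windows of 100 bp with at least 10 cytosines in both lines. Every second window of each interval was taken, so that no 2 windows overlapped. This gave 17891 windows out of 43887 in the table: 5880 in the first chromosome 3 interval (chr3:8937051-9698100), 8173 in the second chromosome 3 interval (chr3:22235451-23207500) and 3838 in the chromosome 4 interval (chr4:11363351-11824750), all on build TAIR10. Both lines were grown with 16 h of light and 8 h of dark, and their rosettes were collected 21 or 22 days after sowing. The study covered 9 lines with 2 libraries each: epiRILs 232, 150, 193 and 92, the epiHybrid of each (epiHybrids 232, 150, 193 and 92), and Col-wt. EpiRIL 232 is 1 inbred line, and whether its 2 libraries stem from different plants is not stated in the labels.

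An epiHybrid is a first-generation cross of an epiRIL, and the labels do not name the other parent. In plants, cytosines are methylated in the contexts CG, CHG and CHH (H being A, T or C), most densely over transposons and other repeats, and CG methylation alone is also common inside transcribed genes. DDM1 is a chromatin remodeller that is needed to keep transposons methylated. In the population in which epiRILs with such numbers are known, a ddm1 mutant was crossed with wild type and the progeny without the mutation were inbred, so that each line inherits chromosome segments from either parent while the DNA sequence stays nearly the same. Some ddm1-derived segments keep low methylation for generations, and others regain it through small-RNA-directed DNA methylation.

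The deposited table gives 1 methylation level per line and window, a fraction from 0 to 1 with all contexts in 1 value, since the authors had combined the libraries of a line. No replicate error could therefore be computed, no test was made, and differences are described by their size alone. An SD below is the spread over windows, which are neighbours and not replicates. Read depth is unknown. Windows had a median of 36 cytosines in epiRIL 232 and of 34 in Col-wt.

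Over all windows the mean methylation level was 0.0255 in epiRIL 232 and 0.0408 in Col-wt. Windows whose levels differed by at least 0.2 were counted. In epiRIL 232, 608 windows were lower (3.4% of all windows) and 26 were higher (0.145%). The lower windows lay almost entirely on chromosome 3: 336 in its first interval (5.71%), 262 in its second (3.21%) and 10 in the chromosome 4 interval (0.261%). Higher windows numbered 10 (0.17%), 4 (0.0489%) and 12 (0.313%) in the same order. In 14432 windows under 0.05 in both lines the mean level was 0.00474 in epiRIL 232 and 0.00783 in Col-wt, so Col-wt also read higher where there was little methylation. This offset was small beside the differences described below.

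Most windows were hardly methylated in Col-wt. In 1213 windows the Col-wt level was at least 0.2, and these are called methylated windows here. The share of the Col-wt level that epiRIL 232 held, taken as the sum of its levels over the sum of the Col-wt levels, was 38.9% in the first chromosome 3 interval (582 windows), 32.4% in the second (411 windows) and 101% in the chromosome 4 interval (220 windows). These low averages on chromosome 3 did not come from a moderate decrease everywhere. A methylated window was called depleted where epiRIL 232 was under 25% of the Col-wt level, wild-type-like at 75% or more, and partial between these limits. Of all methylated windows 583 were depleted (48.1%) and 443 were wild-type-like (36.5%). In the first chromosome 3 interval 340 were depleted (58.4%), 81 partial and 161 wild-type-like (27.7%). The second held 239 depleted (58.2%), 81 partial and 91 wild-type-like windows (22.1%). On chromosome 4 only 4 were depleted (1.82%), with 25 partial and 191 wild-type-like (86.8%).

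**Figure D1:**
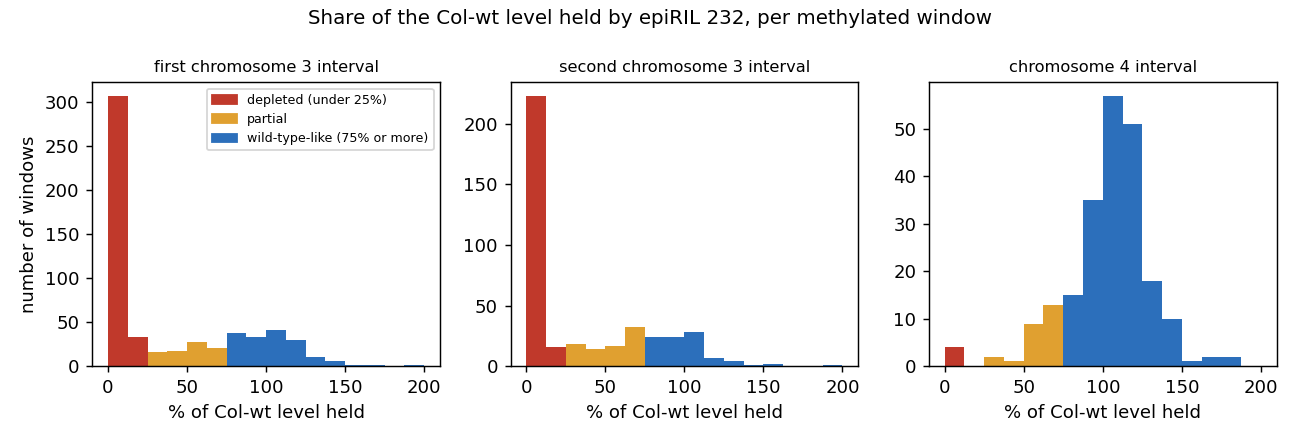
Number of windows (vertical axis) by the share of the Col-wt methylation level held by epiRIL 232 in % (horizontal axis), for windows at 0.2 or more in Col-wt, with red for depleted, yellow for partial and blue for wild-type-like bins. The chromosome 3 intervals each have a tall group near 0 and a broad group near 100%, and the chromosome 4 interval has the broad group with 4 windows near 0.

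The 2 kinds of chromosome 3 window differed in what remained. In the 579 depleted windows of chromosome 3 the level averaged 0.0119 (SD 0.0185 over windows) in epiRIL 232 and 0.337 (SD 0.0935) in Col-wt, and 62 of them read exactly 0 in epiRIL 232. In the 252 wild-type-like windows the mean was 0.332 (SD 0.114) in epiRIL 232 and 0.329 (SD 0.120) in Col-wt. The calls used these same levels, so these means are a description. With all contexts in 1 value, a level near 0 leaves little methylation in any context, whereas the remainder of a partial window cannot be assigned to a context.

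Depleted and wild-type-like windows lay in blocks along chromosome 3. A stretch was a run of at least 5 windows of 1 call with partial windows skipped, shorter runs were passed over, and neighbouring stretches of 1 call were joined. A switch point lies between the last window of a stretch and the first window of the next stretch of the other call. By this rule epiRIL 232 had 14 switch points in the first chromosome 3 interval, 6 in the second and 0 on chromosome 4. Under the other rules tried they numbered between 0 and 18 in the first chromosome 3 interval and between 0 and 16 in the second, while chromosome 4 had 0 under every rule but 1, which gave 4. The stretches were 12 depleted and 11 wild-type-like.

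**Figure D2:**
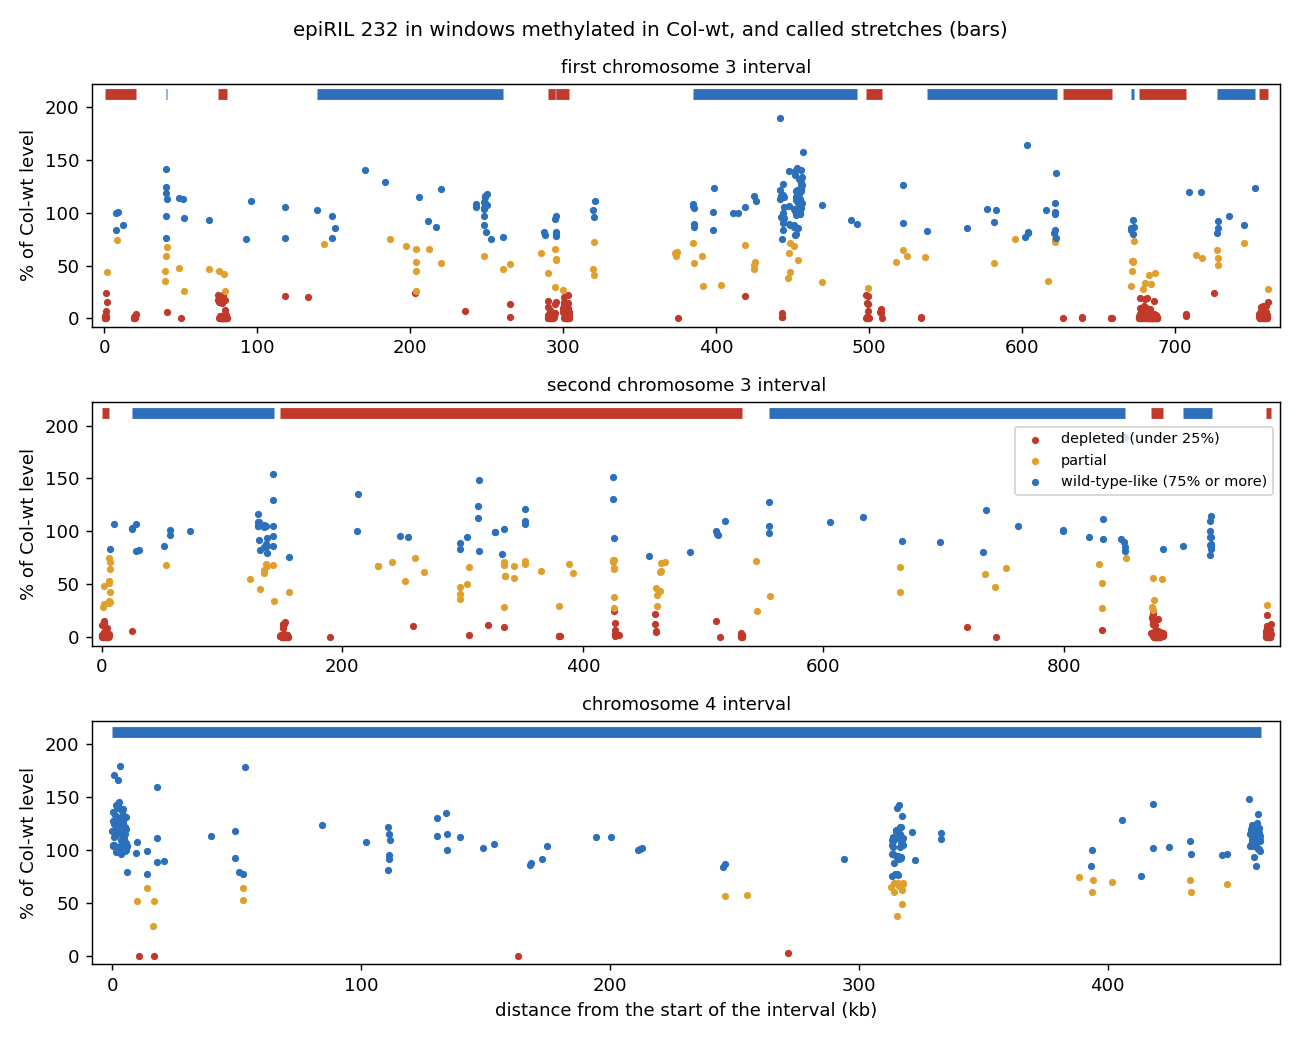
Share of the Col-wt methylation level held by epiRIL 232 in % (vertical axis) in each methylated window, by distance from the start of the interval in kb (horizontal axis), with 1 panel per interval and the called stretches as bars above the points (red depleted, blue wild-type-like). Red and blue blocks alternate in both chromosome 3 intervals, and the chromosome 4 interval is 1 blue stretch of 461.3 kb.

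The first chromosome 3 interval began and ended depleted and alternated between 8 depleted and 7 wild-type-like stretches. The depleted ones were short, from 4.9 to 31.8 kb and 117.8 kb in all, and epiRIL 232 held between 0.213 and 24.1% of the Col-wt level in them. The wild-type-like ones covered 340.7 kb, from 0.5 to 121.4 kb each, and held between 69.2 and 106%. The first depleted stretch, chr3:8937151-8957550, held 24.1% and ended over AT3G24542, a protein-coding gene. It was mixed, with 22 depleted, 2 partial and 4 wild-type-like windows. Its ends held less, 8.12% over chr3:8937151-8938650 and 1.57% over chr3:8956351-8957550, and the wild-type-like windows lay between these ends. The next depleted stretch, chr3:9011551-9017150, held 5.79% and covered the pseudogenes AT3G24675 and AT3G24680. Between these depleted stretches lay a wild-type-like stretch of 6 windows with no annotated gene, chr3:8977251-8977850. Its mean level was 0.427 in epiRIL 232 and 0.402 in Col-wt.

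The longest wild-type-like stretch of that interval ran from chr3:9076351 to 9197750, starting over AT3G24870 and ending near AGC2-1, which encodes a protein kinase of oxidative signalling. It held 84.2% over 38 methylated windows. To its right the line was depleted over the pseudogenes AT3G25450 and AT3G25485, wild-type-like again from chr3:9322151 to 9429150 (94.7% over 94 windows), and depleted at chr3:9435051-9445350 over the pseudogenes AT3G25815 and AT3G25826 (8.64% over 17 windows). From chr3:9474951 to 9559650, between CRF11 (a transcription factor gene of the cytokinin response factor family) and AT3G26140, it held 88.2% over 22 windows. The next depleted stretch, chr3:9563951-9595750, rested on only 6 methylated windows, with a mean level of 0.000867 in epiRIL 232 and 0.407 in Col-wt, and it ended near the cytochrome P450 gene CYP71B3. The following one, chr3:9613551-9644250, had 107 methylated windows, the most of the depleted stretches of this interval, and held 3.96%. It ran from the pseudogene AT3G26260 to near the cytochrome P450 gene CYP71B36. The last, chr3:9692251-9697850, covered the pseudogenes AT3G26483 and AT3G26486 at the right end of the interval and held 3.26% over 56 windows.

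The second chromosome 3 interval had 4 depleted and 3 wild-type-like stretches. It also began and ended depleted. At its left end chr3:22235451-22241250, over the pseudogenes AT3G60164 and AT3G60170 and the noncoding RNA gene AT3G60176, held 4.35% over 57 methylated windows. At its right end chr3:23203551-23207450, over the pseudogene AT3G62725, held 4.61% over 39 windows. Another depleted stretch, chr3:23107651-23118150, began over AT3G62470, took in the pseudogenes AT3G62475, AT3G62480 and AT3G62490, and held 8.44% over 79 windows.

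The 384.1-kb stretch chr3:22383851-22767950 was depleted by the rule but mixed. Of its 138 methylated windows 70 were depleted, 40 partial and 28 wild-type-like, and it held 36.7% of the Col-wt level. Its ends were low throughout: the pseudogene AT3G60565 on the left, and on the right the 10 windows of chr3:22766951-22767950 near AT3G61520, at 0.00334 in epiRIL 232 and 0.275 in Col-wt. Inside it lay the 5 windows over the protein-coding gene AT3G61030 (chr3:22587151-22587650), at 0.329 in epiRIL 232 and 0.352 in Col-wt. The wild-type-like stretches of this interval covered 437 kb and held between 81.2 and 92.1%. The widest of them, from chr3:22790351 to near TBL6 (a gene of the trichome-birefringence-like family) at 23086150, had only 32 methylated windows in 295.8 kb.

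On chromosome 4 the run of wild-type-like windows was not interrupted. The single stretch, chr4:11363451-11824750, had a mean level of 0.337 in epiRIL 232 and 0.334 in Col-wt over 220 methylated windows, and 141 of these (64.1%) read higher in epiRIL 232. The 4 depleted windows stood apart from each other, none overlapped an annotated gene, and each had between 16 and 37 cytosines in either line. They lay near AT4G21362, AT4G21363, AT4G21690 and AT4G21920. EpiRIL 232 read 0, 0, 0 and 0.0104 in them, against 0.3, 0.4, 0.242 and 0.371 in Col-wt. Near AT4G21362 epiRILs 150, 193 and 92 read 0, 0 and 0.00699, and near AT4G21690 they read 0.0429, 0.0118 and 0.00529. These windows were thus low in all 4 epiRILs and not in epiRIL 232 alone. Near AT4G21363 epiRILs 150, 193 and 92 read 0.255, 0.431 and 0.123. Near AT4G21920 epiRILs 150 and 92 read 0.320 and 0.0872.

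Few switch points could be placed closely, because most of the sequence between stretches was unmethylated in Col-wt and carries no information on its state. The gap between the flanking windows was between 200 bp and 81 kb, with a median of 19.55 kb, and 13 of 20 gaps were over 10 kb. The widest gap, 81 kb between AT3G25485 and chr3:9322151, held 640 windows of which 11 were methylated. Wild-type-like windows were among these 11, in runs too short for a stretch. In the 59.2-kb gap to the right of AT3G24680, 6 of 471 windows were methylated, again with wild-type-like ones among them. Gaps of 3 to 6 kb separated AT3G26480 from the pseudogene AT3G26483 (3 kb), chr3:9610450 from AT3G26260 (3.1 kb), the 2 sides of AT3G26140 (4.3 kb), the long noncoding RNA gene AT3G09465 from AT3G60565 (5.6 kb) and AT3G25805 from AT3G25815 (5.9 kb). The remaining flanks include AT3G24610 beside AT3G24542, AT3G26395 beside CYP71B36, AT3G60238 beside AT3G60176, AT3G62540 to the right of the AT3G62475 group, and the long noncoding RNA gene AT3G09845 to the left of AT3G62725.

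The 2 closest switch points, each with a gap of 200 bp, bounded 5 wild-type-like windows inside the protein-coding gene AT3G25460 (chr3:9231951-9232450), between the depleted pseudogenes AT3G25450 and AT3G25485. Across the left one the level in 5 successive windows of epiRIL 232 was 0.0131, 0.0434, 0.0996, 0.248 and 0.483, and in Col-wt the same windows read 0.275, 0.320, 0.339, 0.379 and 0.515. EpiRIL 232 thus passed from a value near 0 to one close to Col-wt within 500 bp in graded steps rather than at 1 window. The rise was not particular to this line. EpiRIL 150 went from 0.00294 at chr3:9231351-9231450 to 0.488 at chr3:9231951-9232050. Over the 5 middle windows the level averaged 0.282 in epiRIL 232 and 0.322 in Col-wt. At the right-hand side the last methylated window, chr3:9232651-9232750, stood at 0.0441 in epiRIL 232 and 0.280 in Col-wt. The position of the right switch point, though not its presence, rested on this 1 window, since no methylated window followed before AT3G25485. This window had 25 cytosines in epiRIL 232 and 42 in Col-wt. EpiRILs 150, 193 and 92 also read below Col-wt in it, at 0.0228, 0.0913 and 0.184. All 12 methylated windows of this gene together averaged 0.194 in epiRIL 232 and 0.337 in Col-wt, which made it partial. The share held over the gene was 57.6% in epiRIL 232 and 61.5% in epiRIL 150.

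**Figure D3:**
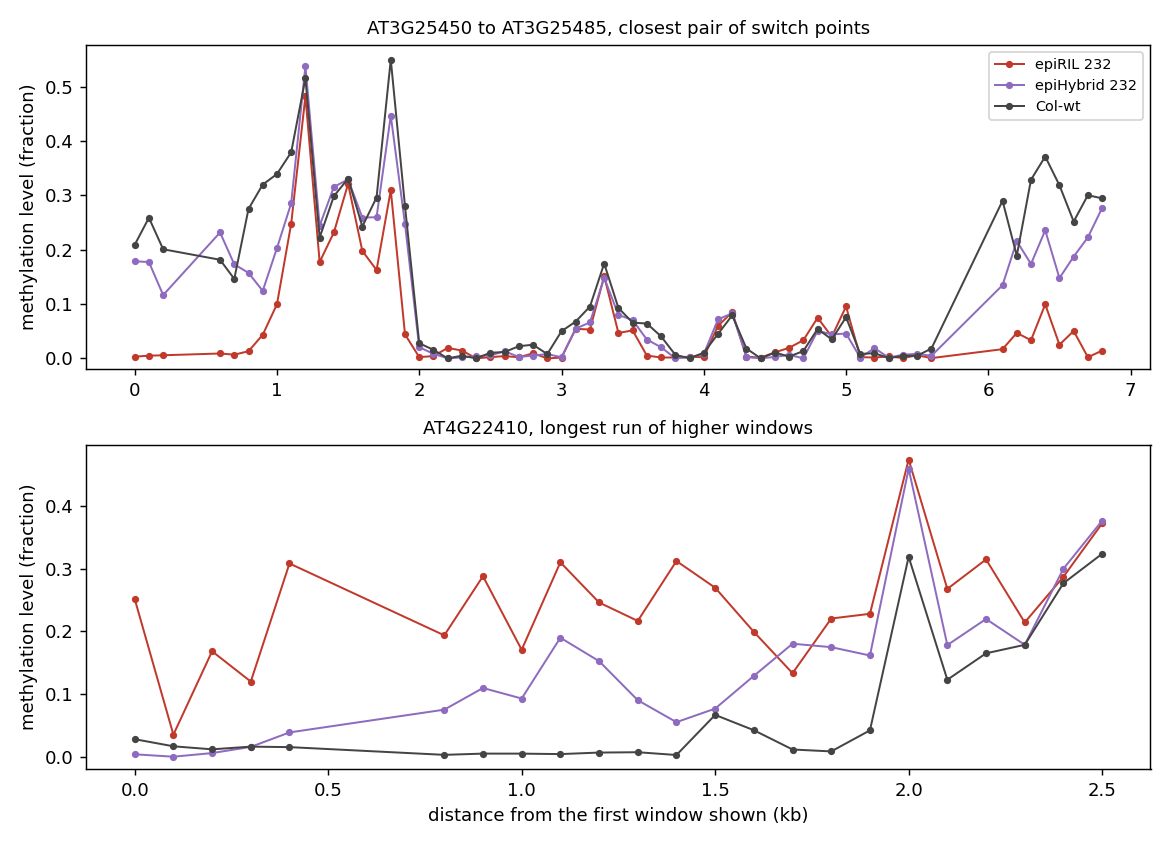
Methylation level as a fraction (vertical axis) per window for epiRIL 232 (red), epiHybrid 232 (purple) and Col-wt (grey) by distance from the first window shown in kb (horizontal axis), with AT3G25450 to AT3G25485 above and the left part of AT4G22410 below, where lines join neighbouring windows across those with too few cytosines. Above, epiRIL 232 approaches Col-wt at a peak of 0.483 against 0.515 and stays near 0 over the pseudogene windows on both sides, and below it stands above Col-wt.

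The alternation on chromosome 3 rested in part on windows that every line kept. A set of windows was therefore chosen with neither epiRIL 232 nor Col-wt: those where, among epiRILs 150, 193 and 92, at least 1 line was at 0.05 or less and at least 1 at 0.2 or more. In the first chromosome 3 interval 276 windows met this, and epiRIL 232 was at 0.05 or less in 247 of them (89.5%) and at 0.2 or more in 5. In the second it was at 0.05 or less in 183 of 219 (83.6%) and at 0.2 or more in 10. On chromosome 4 it was at 0.05 or less in 1 of 98 and at 0.2 or more in 94 (95.9%). The median levels in these windows were 0.00497, 0.00552 and 0.363 in epiRIL 232 and 0.274, 0.370 and 0.303 in Col-wt, for the 3 intervals in order. In windows that varied between the other lines, epiRIL 232 was thus at the low level nearly throughout both chromosome 3 intervals and at the high level in nearly all of them on chromosome 4.

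With stretches drawn only through methylated windows that were depleted in at least 1 of the 4 epiRILs, no interval had a switch point. That rule takes in every window depleted in epiRIL 232 itself and leaves out those that no line had lost, so it removes wild-type-like windows by its construction. The same number was found with stretches drawn only through the windows above that varied between the other 3 lines and were methylated in Col-wt. When 3 windows in a row sufficed for a stretch, 2 switch points appeared, around a wild-type-like piece from chr3:9153851 to 9185650. It rested on the protein-coding gene AT3G25130 (chr3:9153851-9153950, 0.212 in epiRIL 232 and 0.246 in Col-wt) and on 2 windows of the pseudogene AT3G25225 (0.213 and 0.237 in epiRIL 232, 0.242 and 0.228 in Col-wt). The rules built on the other 3 lines were chosen after the data had been seen.

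Conversely, 315 chromosome 3 windows were at 0.2 or more in epiRILs 150, 193 and 92 alike, and epiRIL 232 was also at 0.2 or more in 226 of these (71.7%). It was at 0.05 or less in 48 (15.2%), where its mean was 0.00738, epiRILs 150, 193 and 92 averaged 0.322, 0.346 and 0.375, and Col-wt averaged 0.359. Of these 48 windows 28 lay in a single tract over the pseudogenes AT3G26260 and AT3G26265. In the 10857 chromosome 3 windows at 0.05 or less in all 3 other lines, epiRIL 232 was at 0.2 or more in 1.

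Methylated windows were also grouped with their neighbours. Runs of at least 5 methylated windows no more than 100 bp apart are called tracts, and there were 44, of which 39 were on chromosome 3. Tracts in which epiRIL 232 held under 25% are called lost, those with 75% or more kept, and those between partial. EpiRIL 232 had lost 19 tracts with 538 windows, kept 19 with 278 windows, and 6 with 49 windows were partial. All 5 tracts of chromosome 4 were kept. The share held in the lost tracts had a median of 4.31% (range 1.22 to 13.4%), which left a wide space below the lowest partial tract at 29.8%. Pseudogenes overlapped 16 of the 19 lost tracts, 7 of the 19 kept ones and 0 of the 6 partial ones.

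**Figure D4:**
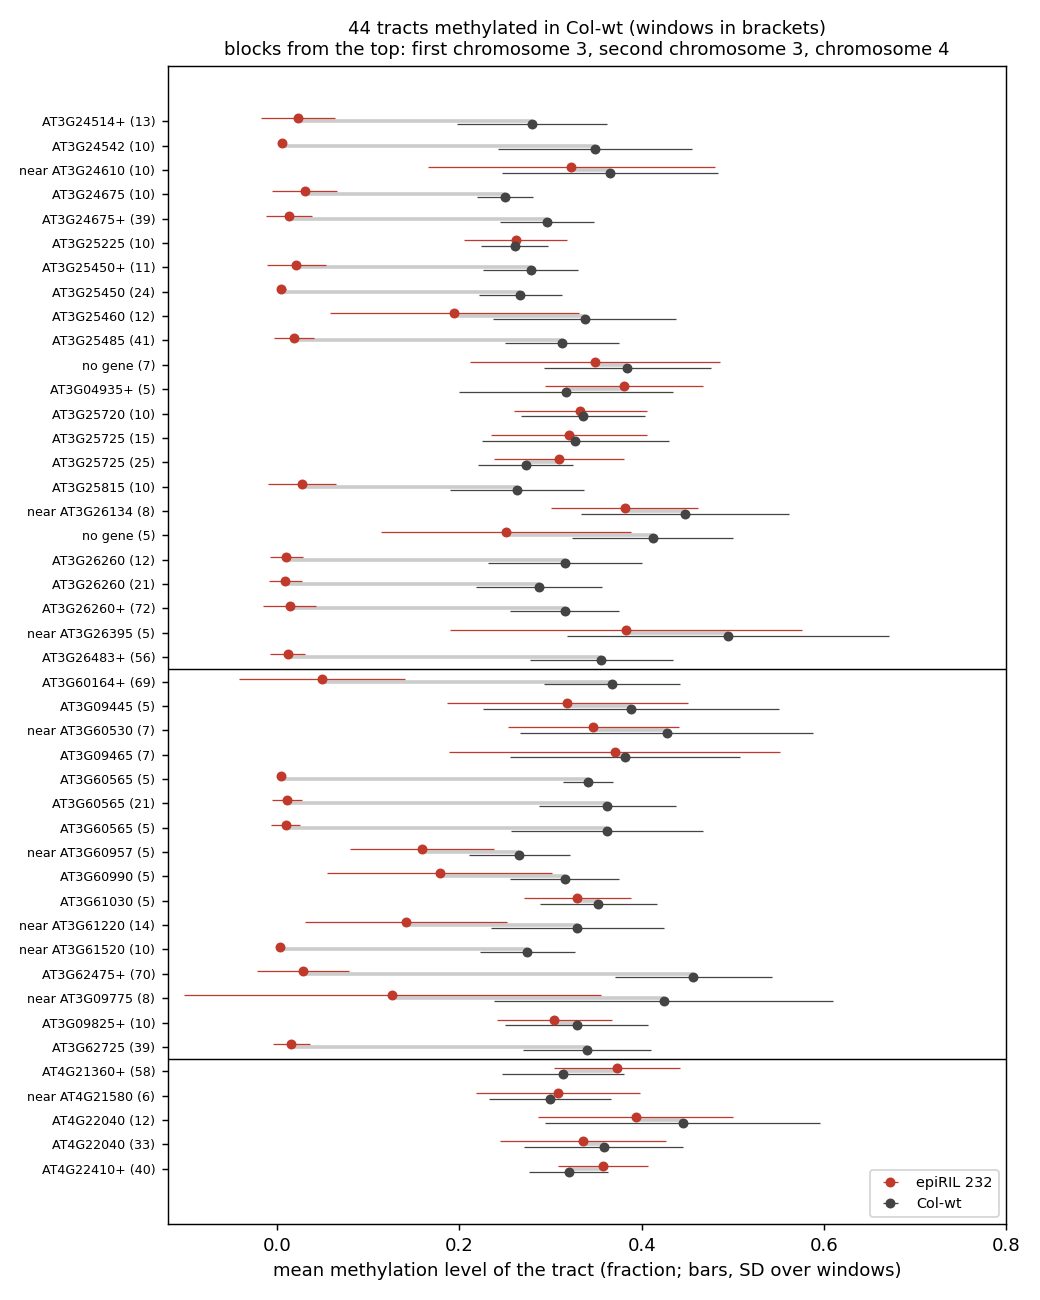
Mean methylation level (horizontal axis, fraction) of each of 44 tracts in epiRIL 232 (red) and Col-wt (grey), with bars for the SD over windows, ordered by position and named by the first overlapping or nearest gene. The 19 lost tracts have red points at 0.05 or less, all of them on chromosome 3, and the 5 chromosome 4 tracts at the bottom have both points within 0.06 of each other.

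The tract with the most windows lay over AT3G26260 and AT3G26265 (chr3:9617551-9625550, 72 windows) and had a mean level of 0.0136 in epiRIL 232 and 0.316 in Col-wt. Its highest window in epiRIL 232 was 0.158, and in Col-wt its windows ran from 0.203, close to the 0.2 that windows of a tract had to reach, to 0.441. Over AT3G62475, AT3G62480 and AT3G62490 (chr3:23108851-23115850, 70 windows) the mean was 0.0284 in epiRIL 232 and 0.457 in Col-wt, the highest Col-wt level among the lost tracts. Over AT3G60164, AT3G60170 and AT3G60176 (chr3:22235451-22242450, 69 windows) it was 0.0491 in epiRIL 232 and 0.367 in Col-wt. This last tract was uneven in epiRIL 232, with 54 windows depleted, 14 partial and 1 wild-type-like, and values from 0 to 0.424.

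The other large lost tracts were more uniform. AT3G26483 and AT3G26486 (56 windows) averaged 0.0116 in epiRIL 232 and 0.355 in Col-wt, with 55 windows depleted. AT3G25485 (41 windows) stood at 0.0187 in epiRIL 232 and 0.313 in Col-wt. AT3G24675 and AT3G24680 (39 windows) stood at 0.0131 in epiRIL 232 and 0.296 in Col-wt. All of these genes are annotated as pseudogenes, and so is AT3G62725, whose 39 windows averaged 0.0157 in epiRIL 232 and 0.340 in Col-wt. In AT3G25450 the larger of its tracts (chr3:9228151-9231050, 24 windows) averaged 0.00440 in epiRIL 232 and 0.267 in Col-wt, with every window depleted. A further 21 windows of AT3G26260 averaged 0.00909 in epiRIL 232 and 0.288 in Col-wt, and 21 windows of AT3G60565 averaged 0.0107 in epiRIL 232 and 0.362 in Col-wt. Lost tracts without a pseudogene were those over AT3G24542 (10 windows), near AT3G61520 (10 windows) and over the group AT3G24514, AT3G24516, AT3G24517 and AT3G24518 (13 windows). AT3G24542 averaged 0.00547 in epiRIL 232 and 0.349 in Col-wt.

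The largest kept tracts were also pseudogenes, most of them on chromosome 4. AT4G21360, whose tract also contains the microRNA gene MIR4239 (chr4:11363451-11369450, 58 windows), averaged 0.373 in epiRIL 232 and 0.313 in Col-wt, and all 58 windows were wild-type-like. The pseudogene AT4G22415, which lies within the longer protein-coding gene AT4G22410 (40 windows), averaged 0.357 in epiRIL 232 and 0.320 in Col-wt. AT4G22040 had tracts of 33 and 12 windows: the first averaged 0.335 in epiRIL 232 and 0.358 in Col-wt, and the second 0.393 in epiRIL 232 and 0.445 in Col-wt. On chromosome 3 the pseudogene AT3G25725 kept both of its tracts. Its 25-window tract averaged 0.309 in epiRIL 232 and 0.273 in Col-wt, and its 15-window tract 0.320 in epiRIL 232 and 0.327 in Col-wt. Among chromosome 3 pseudogenes, AT3G25225 was the only other one with a kept overlapping tract (10 windows), with 0.262 in epiRIL 232 and 0.261 in Col-wt.

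The partial tract with the most windows lay near SDR1, a short-chain dehydrogenase/reductase gene (chr3:22660651-22662250, 14 windows), and averaged 0.142 in epiRIL 232 and 0.330 in Col-wt. Of its windows 5 were depleted, 7 partial and 2 wild-type-like. The 8 windows near the long noncoding RNA gene AT3G09775 averaged 0.126 in epiRIL 232 and 0.424 in Col-wt, with 6 depleted, 1 partial and 1 wild-type-like. Of the 5 windows near the transcribed pseudogene AT3G60957, 0 were depleted, 3 partial and 2 wild-type-like.

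By annotation, the lower windows of chromosome 3 were mostly pseudogene windows. Pseudogenes covered 6.62% of its windows, 46.0% of its methylated windows and 64.0% of its lower windows (383 windows). Of the 457 methylated pseudogene windows, 84.0% were depleted and 10.5% wild-type-like, and the mean was 0.0497 in epiRIL 232 and 0.326 in Col-wt. Protein-coding genes covered 67.3% of the windows but only 17.1% of the methylated ones. Of their 170 methylated windows 22.4% were depleted and 47.6% wild-type-like, and the mean was 0.180 in epiRIL 232 and 0.279 in Col-wt. The 322 methylated windows with no gene stood between, with 44.1% depleted and 31.7% wild-type-like. Transposable elements were not annotated in the table used here, so how many of these pseudogenes are transposable elements is not given.

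Moderately methylated gene windows differed less between the lines. In 1161 protein-coding windows of chromosome 3 with a Col-wt level from 0.05 to under 0.2, epiRIL 232 averaged 0.0850 and Col-wt 0.105, so that 81.3% was held. In the 95 pseudogene windows of the same range epiRIL 232 averaged 0.0672 and Col-wt 0.130, with 51.9% held. On chromosome 4 the 375 protein-coding windows of that range averaged 0.101 in epiRIL 232 and 0.103 in Col-wt. Counted by gene, 18 chromosome 3 pseudogenes had at least 5 methylated windows: epiRIL 232 held under 25% in 15 of them, 34.5% in AT3G61330, and at least 75% in AT3G25725 and AT3G25225. Of 8 such protein-coding genes 3 were under 25%, 3 between and 2 at 75% or more. On chromosome 4 all 3 such pseudogenes were at 95.8% or more.

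The share held also varied with the Col-wt level. In the first chromosome 3 interval it was 39.7% for Col-wt levels from 0.2 to under 0.3 (302 windows), 27.4% from 0.3 to under 0.4 (177 windows), 42.6% from 0.4 to under 0.5 (63 windows) and 61.8% at 0.5 or more (40 windows). In the second interval the same groups held 47.1% (138 windows), 27.6% (135 windows), 25.9% (88 windows) and 31.7% (50 windows). The share did not follow the Col-wt level in 1 direction in either interval.

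EpiRIL 232 can be set beside the other epiRILs, with the limit that all are expressed against the same Col-wt column. In the methylated windows of the first chromosome 3 interval epiRIL 232 held 38.9%, epiRIL 150 72.2%, epiRIL 193 80.8% and epiRIL 92 103%. In the second, epiRIL 232 held 32.4%, epiRIL 150 37.3%, epiRIL 193 37.8% and epiRIL 92 98.6%. On chromosome 4, epiRIL 232 held 101%, epiRIL 150 107%, epiRIL 193 53.3% and epiRIL 92 63.8%. EpiRIL 232 was the lowest of the 4 lines in both chromosome 3 intervals, narrowly in the second. By windows lower by at least 0.2, epiRIL 232 had 608 (3.4%), epiRIL 193 had 465 (2.64%), epiRIL 150 had 400 (2.26%) and epiRIL 92 had 66 (0.368%). Higher windows numbered 26 in epiRIL 232 (0.145%), against 12 (0.0682%), 20 (0.113%) and 23 (0.128%) in the lines 193, 150 and 92.

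In the first chromosome 3 interval the tracts lost in epiRIL 232 were low in epiRIL 150 on the left and in epiRIL 193 on the right. At AT3G25485 epiRIL 232 held 5.99%, epiRIL 150 9.92%, epiRIL 193 111% and epiRIL 92 113%. At AT3G26483 with AT3G26486 epiRIL 232 held 3.26%, epiRIL 150 111%, epiRIL 193 3.73% and epiRIL 92 104%. Over the largest tract, at AT3G26260 and AT3G26265, epiRIL 232 held 4.31%, epiRIL 150 57.3%, epiRIL 193 97.0% and epiRIL 92 104%, so none of the other epiRILs was under 25% there. Of the 19 tracts kept in epiRIL 232, 3 were under 75% in epiRIL 150. AT3G09445, a long noncoding RNA gene, held 82.0% in epiRIL 232 and 2.13% in epiRIL 150. AT3G61030 held 93.5% in epiRIL 232 and 13.9% in epiRIL 150. AT3G25225 held 100.5% in epiRIL 232 and 52.4% in epiRIL 150. Some of the 19 tracts were under 75% in epiRILs 193 and 92 too, among them AT4G21360 with MIR4239 at 3.08% and 57.9%.

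**Figure D5:**
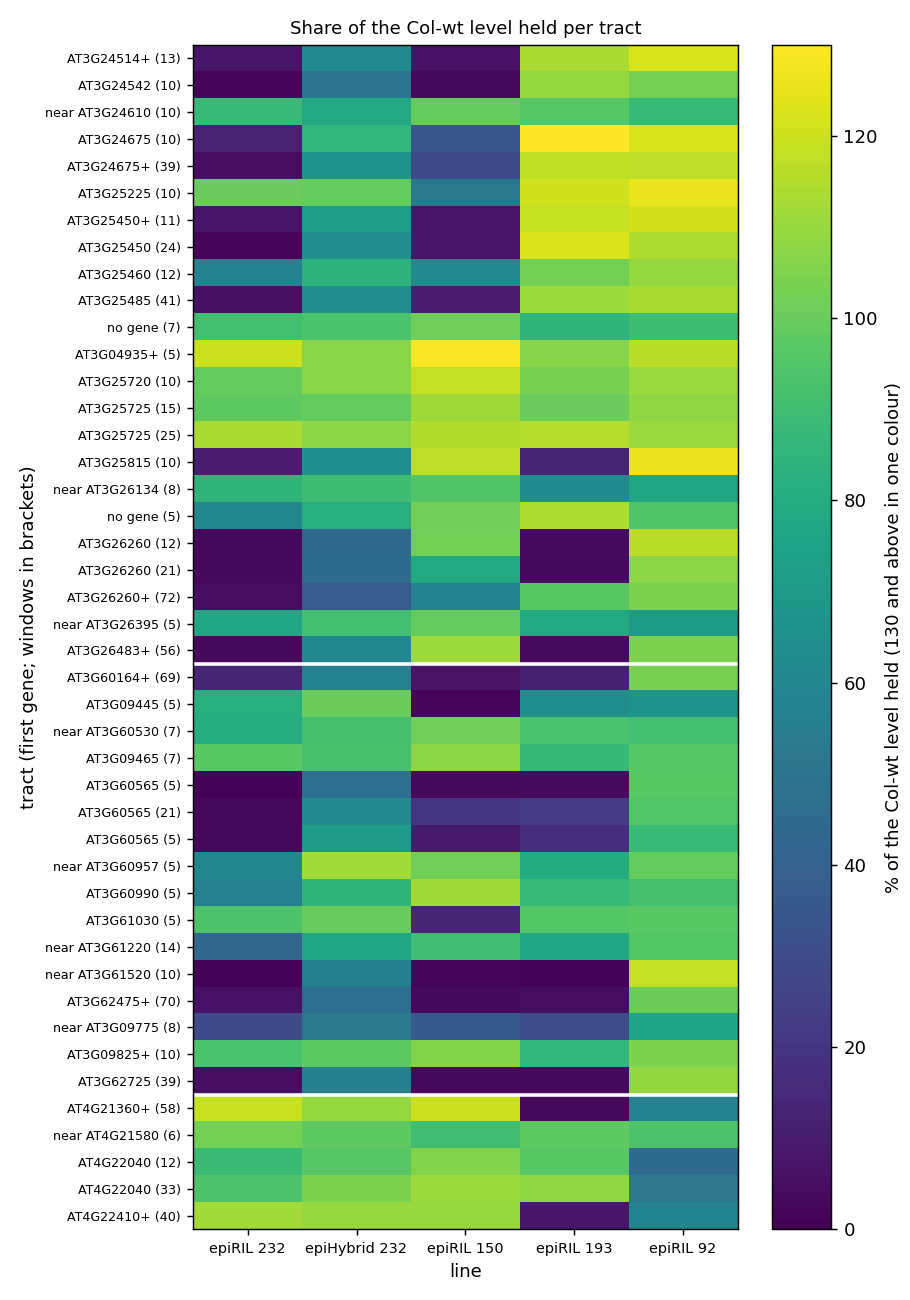
Share of the Col-wt level held in % (colour, dark for low) for each of 44 tracts (rows, by position, in blocks for the first and second chromosome 3 intervals and chromosome 4) in epiRIL 232, epiHybrid 232 and epiRILs 150, 193 and 92 (columns). The column of epiRIL 232 has 19 dark rows, all on chromosome 3, and the same rows are intermediate in epiHybrid 232, between 37.4 and 85.9%.

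EpiHybrid 232 was measured in its own libraries and had no part in the calls, but its shares are of the same Col-wt column. In the 19 lost tracts the median share held was 4.31% in epiRIL 232 and 60.8% in epiHybrid 232 (range 37.4 to 85.9%). In the 19 kept tracts the medians were 93.6% in epiRIL 232 and 99.4% in epiHybrid 232. Window by window, the depleted chromosome 3 windows averaged 0.180 in epiHybrid 232 (53.4% held), and the wild-type-like ones 0.339 (103% held). It followed the stretches in the same way, with between 39.9 and 73.4% held over the 12 depleted stretches and between 79.9 and 105% over the 11 wild-type-like ones. The lowest value among the lost tracts was at AT3G26260 with AT3G26265, where epiHybrid 232 averaged 0.118, epiRIL 232 0.0136 and Col-wt 0.316. The 12 depleted stretches and the 11 wild-type-like stretches did not overlap in the share that epiHybrid 232 held. They were drawn from its own epiRIL and the same Col-wt column, so this separation is a description. In the second chromosome 3 interval it was not particular to epiHybrid 232. Depleted stretches there held 60.4 to 87.3% in epiHybrid 150 and 56.0 to 84.2% in epiHybrid 193. Wild-type-like ones held 94.3 to 103.7% and 92.7 to 98.4%. In epiHybrid 92 the ranges overlapped there. Over all stretches they overlapped in epiHybrids 150 and 193 too.

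Windows higher in epiRIL 232 were scattered. The 26 windows formed 18 runs, 14 of them of 1 window. Of the 26, 20 lay in protein-coding genes, 4 had no gene, 2 lay in other genes and 0 in pseudogenes. Over all windows, protein-coding genes covered 67.8% and pseudogenes 6.53%. With only 26 windows, these counts do not set the higher windows apart from the windows as a whole. The longest run had 6 windows, chr4:11819051-11819750 over the left part of AT4G22410, with a mean of 0.274 in epiRIL 232 and 0.0154 in Col-wt. It lay just left of the kept tract over AT4G22415, so high methylation in epiRIL 232 reached further left than in Col-wt. There epiHybrid 232 averaged 0.112 and epiRILs 92, 150 and 193 averaged 0.0751, 0.00870 and 0.00492. Another 3 single higher windows lay beside this run in the same gene, so 1 gene supplied many of the protein-coding windows. Of these 3, chr4:11818551-11818650 stood at 0.308 in epiRIL 232, 0.0387 in epiHybrid 232 and 0.0153 in Col-wt.

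The next runs had 2 windows each. Near AT4G21580 (chr4:11474951-11475150) the mean was 0.464 in epiRIL 232 and 0.0897 in Col-wt, but epiRILs 150 and 92 also read 0.325 and 0.329 there, and Col-wt had as few as 13 cytosines. In AT3G24880 (chr3:9086551-9086750) it was 0.410 in epiRIL 232 and 0.109 in Col-wt, with 0.119 to 0.128 in the other 3 epiRILs. In AT3G24929, which overlaps the receptor-like protein gene RLP40 (chr3:9107351-9107550), it was 0.306 in epiRIL 232 and 0.0684 in Col-wt. The largest single difference was an unannotated window, chr3:9256451-9256550, at 0.567 in epiRIL 232 and 0.0909 in Col-wt on 15 and 11 cytosines.

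Across the limit of 10 cytosines the values moved little. Methylated windows whose lower count was 10 to 12 cytosines (47 windows) averaged 0.224 in epiRIL 232 and 0.384 in Col-wt. Those left out with 7 to 9 cytosines (50 windows) averaged 0.249 in epiRIL 232 and 0.400 in Col-wt. The share held was 58.4% in the former and 62.3% in the latter, against 47.7% over all methylated windows. Windows with few cytosines thus held a larger share than methylated windows as a whole.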

How the data were processed

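Bisulfite libraries were made from about 5000 ng of DNA of aerial rosettes, per the labels' protocols. The tools listed in the submitters' processing notes are Bowtie2, BS-Seeker2 and cutadapt, without versions, and the build is TAIR10. For each of 9 lines the deposited table holds a methylation level as a fraction and a number of cytosines per window of 100 bp placed every 50 bp, and the authors had combined the 2 libraries of a line in a way not given in the sources used here. Because contexts share 1 value, the level of a window depends on its mix of CG, CHG and CHH sites. The 12 columns of mid-parent values, differences and ratios were not used.

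Windows, calls, tracts and stretches were computed from the fractions with Python 3.11.15, pandas 2.3.3 and NumPy 2.4.6, and drawn with matplotlib 3.10.9. With 1 value per line there was no test, no replicate error and no interval. The windows, lists and limits were chosen with earlier results of these data known. Genes were placed by position from the RefSeq annotation of TAIR10.1, which gave the gene names and the annotation class of each window and tract. Gene overlap correlated with the number of cytosines per window at 0.276 without a shift of the annotation and at 0.255 and 0.258 with a shift of 250 bp to either side. Genes named are those at (or within 1000 bp of) the 20 tracts with the most windows, both sides of each switch point, the 5 longest higher runs, and kept tracts inside depleted stretches. Other genes were named after their values were seen. Alternatives varied the cytosine minimum, the set of alternate windows, the limits, the stretch rule, a background subtraction and the line set against epiRIL 232.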

Additional observations from a re-analysis of the deposited data

How the results depend on the processing

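No paired analysis was possible because the libraries of a line share 1 column, so neither a replicate block nor leaving out a replicate could be run. A count was taken as moved beyond 1.5 times the reported one, and a share beyond the margin that a 95% Wilson interval would have over its windows. Neighbouring windows are not independent, so this margin is a limit of convenience and not an error. It is very narrow for a share near 100%, and all 7 alternatives of the share held on chromosome 4 counted as moved. Of 153 alternative values of 18 summary results, 54 moved by these limits. The difference between the lines changed sign in 14 of 219 alternative values of single tracts, all of them tracts kept in epiRIL 232, and 6 of the 14 arose with epiRIL 92 in place of Col-wt. It changed by up to 0.124 against Col-wt and up to 0.269 against epiRIL 92. Read depth, which is unknown, and the cytosine minimum limit all values, and the cause of the changes below was not tested unless the rule itself sets it. The 2 rules built on windows that differ among the other 3 epiRILs were chosen after seeing the data.

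A difference of 0.1 in place of 0.2 gave 516 lower windows in the first chromosome 3 interval and 44 on chromosome 4, and 55, 33 and 67 higher windows in the 3 intervals in order. A difference of 0.3 gave 146 and 3 lower windows, and 3, 0 and 4 higher windows. The share of lower chromosome 3 windows in pseudogenes was 50.3% at 0.1 and that in protein-coding genes 16.5% at 0.1 and 3.73% at 0.3. With a minimum of 3 cytosines, the first chromosome 3 interval had 18 higher windows, 30.8% of lower windows had no gene and 13 tracts were partial. With 20 cytosines there were 5 higher windows in the first chromosome 3 interval and 6 lower ones on chromosome 4, 68.2% of lower windows lay in pseudogenes, 23.4% had no gene, and 2 tracts were partial. The windows left out in between, offset by 50 bp, gave 2 higher windows and 10 switch points in the second chromosome 3 interval.

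The share held on chromosome 4 lay under 100% in 4 of 7 alternatives, so its side of the Col-wt level is not fixed: it was 98.4% with 3 cytosines, 103% with 20, 98.9% in the offset windows, 102% with the background subtracted, and 99.0 and 96.0% with methylated windows from 0.1 and 0.3. From 0.1 it was 46.4 and 43.3% in the chromosome 3 intervals. With epiRIL 92 in place of Col-wt, chromosome 4 had 1 lower and 59 higher windows and 120.3% held, and 12 tracts were partial. EpiRIL 92 itself is low on chromosome 4.

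Switch points in the first chromosome 3 interval numbered 6 with methylated windows from 0.3 or with stretches from 10 windows, 0 with windows depleted in at least 1 epiRIL or with windows that differ among the other 3 epiRILs, and 2 with these last windows and stretches from 3 windows. In the second they numbered 16 with methylated windows from 0.1, 12 with stretches from 3 windows, 10 with a single limit at 50%, 10 with a two-state hidden Markov path, and 0 under each of the last 3 window rules. On chromosome 4 there were 4 with methylated windows from 0.1. Partial tracts numbered 14 from 0.1, 3 from 0.3, 2 with tracts from 10 windows and 0 with a single limit at 50%. Kept tracts numbered 39 from 0.1 and 10 with tracts from 10 windows.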

Other observations

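Within the pseudogene AT3G26260 and its right-hand neighbour AT3G26265, epiRIL 193 differed between adjacent tracts where epiRIL 232 did not. In the tract chr3:9615051-9617350 epiRIL 232 held 3.16% of the Col-wt level and epiRIL 193 held 3.19%. In the next tract, chr3:9617551-9625550, epiRIL 232 held 4.31% and epiRIL 193 held 97.0%. EpiHybrid 232 held 46.1% in the left tract and 37.4% in the right one.

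A single window in NGA2, a transcription factor gene of leaf and flower development (chr3:22953151-22953250), read 0.261 in epiRIL 232 and 0.00676 in Col-wt. EpiRILs 193, 150 and 92 read 0.338, 0.170 and 0.00549, and epiHybrid 232 read 0.0169, nearer to Col-wt than to epiRIL 232. It was the only chromosome 3 window above 0.2 in epiRIL 232 among those chosen by variation between the other lines where Col-wt was under 0.01, and it was picked out after its values were seen.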
